A study of Mus musculus with 2 samples.

Results

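The TRBV13 family holds 3 V genes of the mouse T cell receptor β-chain, TRBV13-1, TRBV13-2 and TRBV13-3, which RefSeq also lists under the older names Tcrb-V8.3, Tcrb-V8.2 and Tcrb-V8.1 (the Vβ8 genes). A clonotype, which here is a listed nucleotide CDR3 with its best V and J hits, was taken as a member when its best J hit was a TRBJ gene and its best V hit was TRBV13-1, TRBV13-2 or TRBV13-3. This rule found 249 of 1252 TCR β-chain clonotypes, of which 68 of 337 were in CD8αα and 181 of 915 in CD8αβ T cells. Both populations were sorted from the liver of dnTGFβRII (TG) mice on the C57BL/6 background, aged 10 weeks by the sample labels (the study's methods give a slightly younger age). In these mice the mouse CD4 promoter drives a human TGF-β receptor II made dominant-negative, and they serve as a model of primary biliary cholangitis. Both populations carry this transgene, and wild-type cells were not analysed here. Each population is 1 bulk RNA library, the number of mice behind it is not given in the sources used here, so that nothing here was checked in a replicate. The tests on reads or clonotypes therefore compare these 2 libraries and not the cell types.

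A β-chain gene is assembled in the thymus by joining a V, a D and a J segment, and the joint encodes CDR3, the loop that usually contacts the peptide, while CDR1 and CDR2 are encoded by the V gene itself. Bases are trimmed from the segment ends and non-templated bases are added between them, so that a CDR3 nucleotide sequence serves as a near-unique tag of a T cell clone. Mouse Vβ8 chains are known from antibody staining as one of the most used β-chain families, as the target of the superantigen staphylococcal enterotoxin B, and, for TRBV13-2, as a frequent partner of the invariant TRAV11-TRAJ18 chain of NKT cells. In these lists no TCR α-chain clonotype had TRAV11 and TRAJ18 as its best hits, at 0 of 1352 reads for CD8αα and 0 of 892 for CD8αβ. This allows the pair a share of up to 0.222% and 0.336% of the TCR α-chain reads. Only the exact name TRAV11 was counted, so a chain listed under another V gene name is not covered by these limits.

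In the GENCODE annotation of GRCm38, the build that the sample labels name as mm10, the 3 genes lie on the plus strand of chromosome 6 and alternate with the TRBV12 genes. Trbv13-1 (ENSMUSG00000076467.3) spans 41116007 to 41116468, Trbv13-2 (ENSMUSG00000076469.3) spans 41121396 to 41121832 and Trbv13-3 (ENSMUSG00000076470.1) spans 41130147 to 41130585. Trbv12-2 lies between the first pair and the pseudogene Trbv12-3 between the second pair, while Trbv12-1 lies just upstream of Trbv13-1. Each is annotated as a T cell receptor V gene whose second exon, of 294 bases, encodes nearly all of the variable region. TRBV13-2 and TRBV13-3 were the closest pair, with 24 differing bases over this exon (91.8% identity), against 33 between TRBV13-1 and TRBV13-2 (88.8%) and 41 between TRBV13-1 and TRBV13-3 (86.1%). The second exons are shown since the assignment of a read to a member rests on them, and capitals mark the 49 positions at which the 3 genes are not all alike. The lines give chr6:41116175-41116468, chr6:41121539-41121832 and chr6:41130292-41130585 of GRCm38, plus strand.
TRBV13-1: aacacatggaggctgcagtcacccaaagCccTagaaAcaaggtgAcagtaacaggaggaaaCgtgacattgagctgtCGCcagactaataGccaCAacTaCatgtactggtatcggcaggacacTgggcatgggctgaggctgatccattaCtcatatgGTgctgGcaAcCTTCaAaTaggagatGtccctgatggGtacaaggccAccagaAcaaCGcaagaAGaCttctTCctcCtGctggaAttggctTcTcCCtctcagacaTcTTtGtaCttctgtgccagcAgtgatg
TRBV13-2: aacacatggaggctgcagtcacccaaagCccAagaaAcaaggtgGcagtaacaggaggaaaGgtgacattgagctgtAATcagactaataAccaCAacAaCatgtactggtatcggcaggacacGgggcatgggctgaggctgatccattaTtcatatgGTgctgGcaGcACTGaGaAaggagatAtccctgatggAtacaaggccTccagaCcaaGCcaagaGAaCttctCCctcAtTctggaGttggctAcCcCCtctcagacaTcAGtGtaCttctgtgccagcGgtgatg
TRBV13-3: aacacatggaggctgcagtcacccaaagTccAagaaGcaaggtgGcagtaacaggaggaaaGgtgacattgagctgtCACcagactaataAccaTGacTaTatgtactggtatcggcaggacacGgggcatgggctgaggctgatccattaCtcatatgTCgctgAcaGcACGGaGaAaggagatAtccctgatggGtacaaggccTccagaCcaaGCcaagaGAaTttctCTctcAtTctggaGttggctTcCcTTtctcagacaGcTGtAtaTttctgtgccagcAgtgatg

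The last 16 bases of each exon are the germline start of CDR3. Over these bases TRBV13-1 and TRBV13-3 were identical, and TRBV13-2 differed from TRBV13-1 by A10G, with positions counted from 1 at the first base of CDR3 and the TRBV13-1 base given first. This change sets the fourth residue of CDR3, which is serine for TRBV13-1 and TRBV13-3 and glycine for TRBV13-2, and the next codon encodes aspartic acid in each gene. The germline ends are shown to read the CDR3s, with the differing base in capitals.
TRBV13-1: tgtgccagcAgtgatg
TRBV13-2: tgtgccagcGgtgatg
TRBV13-3: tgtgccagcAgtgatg

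The largest TRBV13 clonotype of each gene is shown for each library, and for TRBV13-1 in CD8αβ T cells it is the first listed of 3 clonotypes tied at 5 reads. Capitals now mark the bases between the end of the V match and the start of the J match, as the lists give them. A V match in the lists can run past the 16 germline bases printed above, up to 20 bases in TRBV13-2, so some lower-case bases after these 16 are not in the germline exon. These sequences are shown since the read shares described further on depend on them.
TRBV13-1 with TRBJ2-7, CD8αα, 46 reads: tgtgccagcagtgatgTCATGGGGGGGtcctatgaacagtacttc
TRBV13-2 with TRBJ1-4, CD8αα, 88 reads: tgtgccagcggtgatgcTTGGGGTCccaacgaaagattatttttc
TRBV13-3 with TRBJ1-3, CD8αα, 63 reads: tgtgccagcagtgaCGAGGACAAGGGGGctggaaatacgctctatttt
TRBV13-1 with TRBJ2-7, CD8αβ, 5 reads: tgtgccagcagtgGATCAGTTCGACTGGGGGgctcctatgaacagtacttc
TRBV13-2 with TRBJ2-4, CD8αβ, 8 reads: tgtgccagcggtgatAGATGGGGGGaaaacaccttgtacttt
TRBV13-3 with TRBJ2-7, CD8αβ, 10 reads: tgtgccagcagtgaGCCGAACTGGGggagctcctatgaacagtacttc

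The lists held 2995 TCR β-chain reads for CD8αα and 1850 for CD8αβ T cells. Reads are not independent molecules, since no molecular identifiers are described, and all intervals are 95% Wilson intervals that cover counting error only. Each TRBV13 entry listed a single V gene in its hit list, and stop codons and frameshifts were absent. The lists hold receptor chains only, so the CD8α and CD8β labels were not checked against marker genes. In bulk RNA, more cells of a clone and more receptor RNA in each of its cells cannot be told apart.

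With each clonotype counted once, the 3 genes held similar shares, and none passed the test of a difference between the libraries. TRBV13-2 was carried by 26 clonotypes in CD8αα T cells (7.72%, 5.32 to 11.1) and by 64 in CD8αβ T cells (6.99%, 5.52 to 8.83). TRBV13-1 was carried by 23 (6.82%, 4.59 to 10.0) and 59 clonotypes (6.45%, 5.03 to 8.23). TRBV13-3 was carried by 19 (5.64%, 3.64 to 8.64) and 58 clonotypes (6.34%, 4.94 to 8.11). The differences, CD8αα minus CD8αβ, were 0.721, 0.377 and -0.701 percentage points, with adjusted p = 1 for each (two-sided Fisher's exact test on clonotypes, Benjamini-Hochberg adjustment over 24 V genes; unadjusted p = 0.711, 0.798 and 0.693). Of the 24 V genes, 1 (4.17%) passed the threshold of 0.05 by clonotypes, and of the 3 TRBV13 genes 0 did. In both libraries the intervals of the 3 genes overlapped, so their order by clonotypes was not resolved. Together the family carried 20.2% of the CD8αα clonotypes (16.2 to 24.8) and 19.8% of the CD8αβ clonotypes (17.3 to 22.5).

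By reads, TRBV13-3 was lower in CD8αα T cells, and TRBV13-1 and TRBV13-2 did not pass the test. TRBV13-3 held 136 reads in CD8αα T cells (4.54%, 3.85 to 5.35) and 113 among CD8αβ reads (6.11%, 5.11 to 7.29), which is -1.57 percentage points as CD8αα minus CD8αβ (adjusted p = 0.0325, the same exact test applied to reads). TRBV13-1 held 130 reads (4.34%, 3.67 to 5.13) and 101 reads (5.46%, 4.51 to 6.59), and the adjusted p of this difference of -1.12 percentage points was 0.110. TRBV13-2 held 211 reads (7.05%, 6.18 to 8.02) and 123 reads (6.65%, 5.60 to 7.88), a difference of 0.396 percentage points with an adjusted p of 0.710. The family as a whole held 15.9% of the CD8αα reads (14.7 to 17.3) and 18.2% of the CD8αβ reads (16.5 to 20.04). Of the 24 V genes 58.3% passed the threshold by reads, 2 of them higher and 12 lower in CD8αα T cells, so 1 of 3 TRBV13 genes is no more than the background of these lists. The CD8αα reads include 1 TRBV16 clonotype of 663 reads, and with the top clonotype removed from each list TRBV13-3 differed by -0.592 percentage points (adjusted p = 0.546, Fisher's exact test). Under the same change TRBV13-2 differed by 2.06 percentage points and passed (adjusted p = 0.0394, Fisher's exact test).

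**Figure D1:**
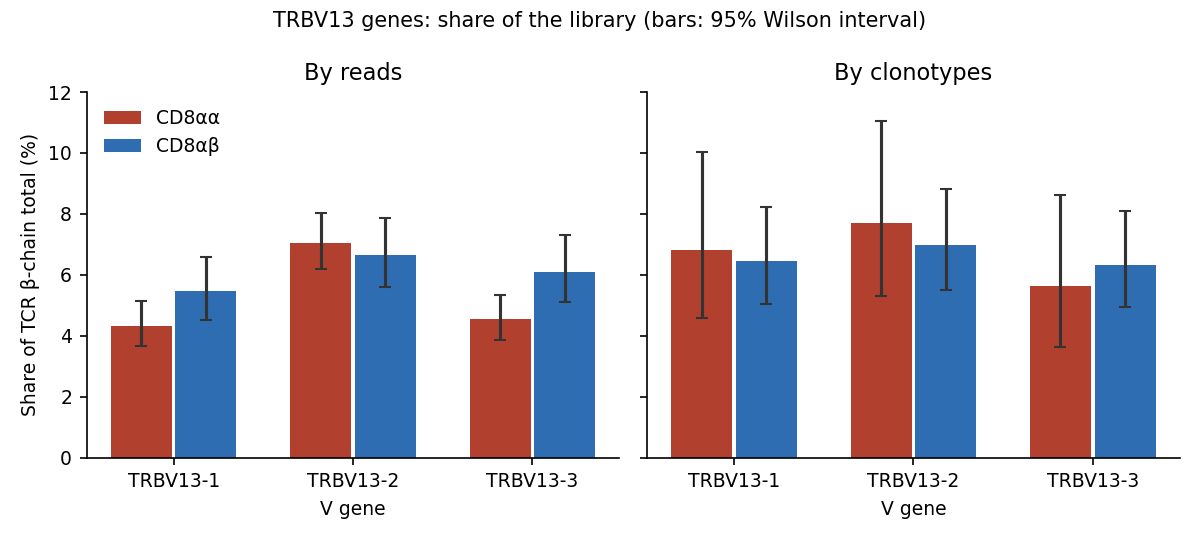
Share of each TRBV13 gene among the TCR β-chain reads (left) and clonotypes (right) of the CD8αα (red) and CD8αβ (blue) library, in percent, with 95% Wilson intervals as error bars. By clonotypes all bars lie between 5.64% and 7.72% with overlapping intervals, and by reads TRBV13-3 is at 4.54% in CD8αα against 6.11% in CD8αβ T cells.

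Among the 24 V genes, TRBV13-2 had rank 4 by reads in CD8αα and rank 6 in CD8αβ T cells. The interleaved TRBV12 genes, TRBV12-1 and TRBV12-2, together held 5.71% of the CD8αα reads (4.93 to 6.60) and 16.4% of the CD8αβ reads (14.8 to 18.2), and each of these 2 genes was lower in CD8αα T cells by reads after adjustment. Of the other V genes, 2 of 5 in TRBV1 to TRBV5, 3 of 4 in TRBV14 to TRBV17 and 6 of 9 in TRBV19 to TRBV31 passed by reads, of which 1, 1 and 0 were higher in CD8αα T cells.

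**Figure D2:**
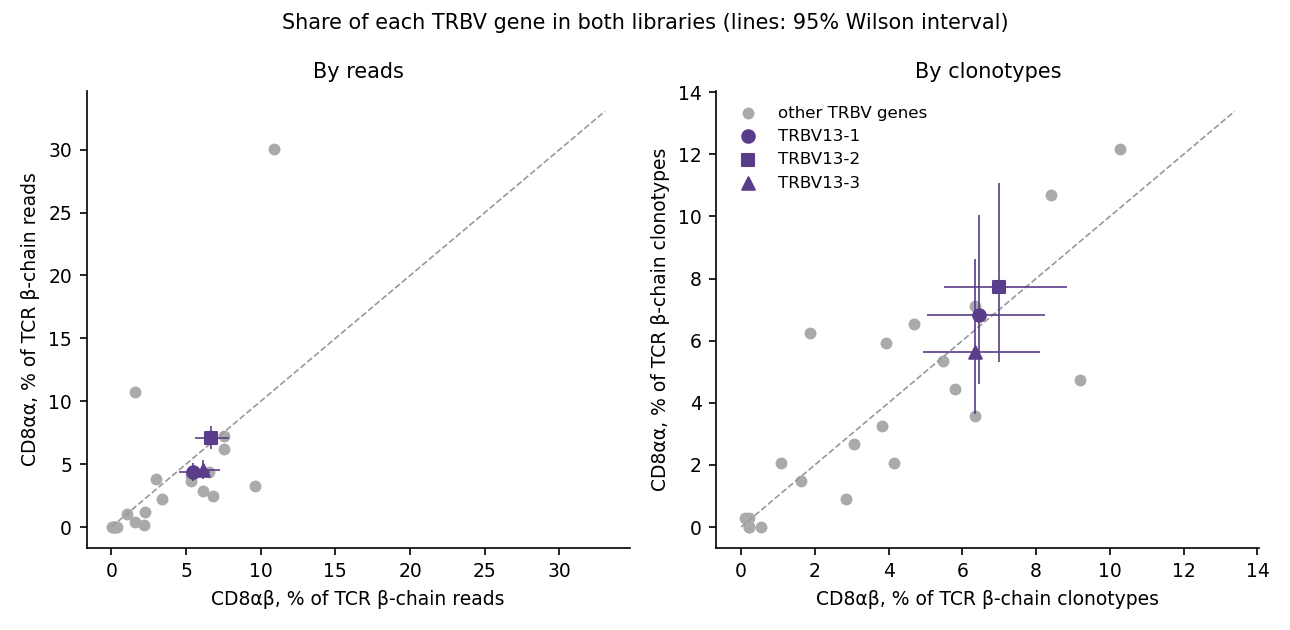
Share of each of the 24 TRBV genes in CD8αβ (x axis) and CD8αα T cells (y axis), in percent of TCR β-chain reads (left) and clonotypes (right). Purple symbols are the TRBV13 genes with 95% Wilson intervals, grey points the other genes, and the dashed line marks equal shares. The TRBV13 genes lie close to the line, and their intervals touch it in the clonotype panel.

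The clone sizes of the family had very different upper ends in the libraries. In CD8αα T cells the reads of each clonotype of TRBV13-1 ranged from 1 to 46 with a median of 3, those of TRBV13-2 from 1 to 88 with a median of 2 and those of TRBV13-3 from 1 to 63 with a median of 3. In CD8αβ T cells the ranges were 1 to 5, 1 to 8 and 1 to 10, with medians of 1, 2 and 1. Clonotypes with 10 or more reads numbered 3, 4 and 3 in CD8αα against 0, 0 and 1 in CD8αβ T cells. Most clonotypes thus overlapped in size between the libraries, and the largest of each gene in CD8αα T cells lay above every clonotype of that gene in the other library.

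The largest clonotype held 35.4% of the TRBV13-1 reads of CD8αα T cells (27.7 to 43.9), against 4.95% in CD8αβ T cells (2.13 to 11.1). For TRBV13-2 these shares were 41.7% (35.3 to 48.4) and 6.50% (3.33 to 12.3). For TRBV13-3 they were 46.3% (38.2 to 54.7) and 8.85% (4.88 to 15.5). For each of the 3 genes the intervals of the libraries lay apart, and those of the 3 genes within CD8αα T cells did overlap. The 2 libraries differ in reads for each clonotype throughout. Among the V genes with at least 100 reads, the share of the largest clonotype ranked sixth to eighth of 11 in CD8αα T cells and sixth to ninth of 10 in CD8αβ T cells, so these values lay in the middle and lower part of both lists.

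Counted from the largest down, 3 clonotypes of TRBV13-1, 2 of TRBV13-2 and 2 of TRBV13-3 reached 50% of the gene's reads in CD8αα T cells, against 17, 18 and 14 in CD8αβ T cells. An effective number of clonotypes, the inverse of the summed squares of the read shares within a gene, was 6.15, 4.58 and 4.09 in CD8αα and 42.3, 42.4 and 33.7 in CD8αβ T cells. Since the genes differ in reads, the number of clonotypes was also computed for 101 reads of each gene, the smallest number that any of them had, and 21.6, 18.8 and 17.6 clonotypes were then expected in CD8αα T cells against 59.0, 57.8 and 54.4 in CD8αβ T cells. The order of the 3 genes was the same in both libraries by this measure, and the gap between libraries was larger than that between genes.

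Clonotypes seen once made up a smaller share of the family in CD8αα T cells, without overlap of the intervals, at 20 of 68 (29.4%, 19.9 to 41.1) against 98 of 181 (54.1%, 46.9 to 61.2). The other TRBV genes showed the same gap, at 87 of 269 (32.3%, 27.0 to 38.1) against 427 of 734 (58.2%, 54.6 to 61.7). TRBV13-2 was the gene with the most of them in CD8αα T cells, at 11 of 26 (42.3%, 25.5 to 61.1), and its interval overlapped that of CD8αβ T cells at 31 of 64 (48.4%, 36.6 to 60.4). For TRBV13-1 the values were 5 of 23 and 35 of 59, and for TRBV13-3 they were 4 of 19 and 32 of 58. TRBV13-2 in CD8αα T cells thus held both the largest clonotype of the family and, of the 3 genes, the highest share of clonotypes seen once in that library. Reads for each clonotype averaged 7.01 over the family in CD8αα T cells and 9.36 over the other TRBV genes, or 6.92 over the latter without the TRBV16 clonotype of 663 reads. In CD8αβ T cells the averages were 1.86 and 2.06.

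**Figure D3:**
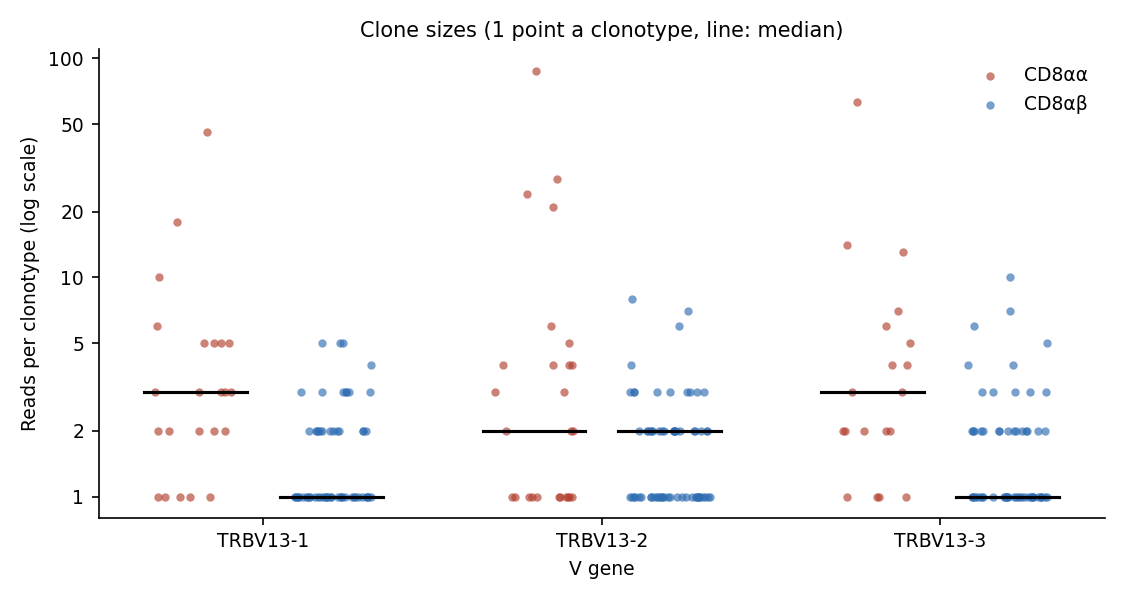
Reads of every TRBV13 clonotype on a log scale, by gene and library, with 1 point for each clonotype and a black line at the median. The CD8αα library reaches 46, 88 and 63 reads while the CD8αβ library stops at 5, 8 and 10, and the medians lie between 1 and 3.

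The share of each gene was also computed without its own largest clonotype, which lowers CD8αα more by construction since 46, 88 and 63 reads are then left out there against 5, 8 and 10 in CD8αβ T cells, and it is given with no test. TRBV13-1 was then at 2.85% (2.31 to 3.51) against 5.20% (4.28 to 6.31). TRBV13-2 was at 4.23% (3.56 to 5.03) against 6.24% (5.23 to 7.44). TRBV13-3 was at 2.49% (1.98 to 3.12) against 5.60% (4.64 to 6.74).

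The next clonotypes in CD8αα T cells were smaller by a factor of more than 2 for each gene. TRBV13-1 with TRBJ2-1 held 18 reads (0.601% of the TCR β-chain reads, 0.381 to 0.948) and TRBV13-1 with TRBJ1-1 held 10 (0.334%, 0.181 to 0.614). TRBV13-2 with TRBJ2-7 held 28 reads in one clonotype (0.935%, 0.648 to 1.35) and 24 in another (0.801%, 0.539 to 1.19). For TRBV13-3, another of its 3 largest clonotypes, with TRBJ1-1, held 13 reads (0.434%, 0.254 to 0.741). In the CD8αβ library the next clonotypes of the 3 genes held 5 to 7 reads and could not be ordered at this depth. Their CDR3s are shown to compare the joints, with the bases between V and J in capitals.
TRBV13-1 with TRBJ2-1, CD8αα, 18 reads: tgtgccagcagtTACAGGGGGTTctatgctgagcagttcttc
TRBV13-1 with TRBJ1-1, CD8αα, 10 reads: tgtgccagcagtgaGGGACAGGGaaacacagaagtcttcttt
TRBV13-2 with TRBJ2-7, CD8αα, 28 reads: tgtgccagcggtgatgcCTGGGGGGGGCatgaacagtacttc
TRBV13-2 with TRBJ2-7, CD8αα, 24 reads: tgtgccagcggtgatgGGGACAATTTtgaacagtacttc
TRBV13-3 with TRBJ1-1, CD8αα, 13 reads: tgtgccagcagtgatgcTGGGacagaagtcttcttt

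Of the 18 clonotypes that are the 3 largest of each gene in each library, 4 to 18 bases lay between V and J, and 1 was found in both libraries. It paired TRBV13-1 with TRBJ1-4, held 5 reads in CD8αβ and 2 reads in CD8αα T cells, and was the only one of all TRBV13 clonotypes whose nucleotide CDR3 stood in both lists. Over the other TRBV genes, 2 nucleotide clonotypes were shared, among 269 and 734.
TRBV13-1 with TRBJ1-4, both libraries: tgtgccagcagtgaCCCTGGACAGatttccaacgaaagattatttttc

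A further CDR3 was shared by its residues and not by its nucleotides. TRBV13-2 with TRBJ2-3 gave the same amino acids from 3 different nucleotide sequences, 1 in CD8αα T cells with 1 read and 2 in CD8αβ T cells with 2 reads each. Each kept the whole germline end of TRBV13-2. They are shown since they encode 1 CDR3 by different nucleotides, with the bases outside the V and J matches in capitals. The 2 CD8αβ sequences differ at 1 base, so separate joints cannot be told apart from a sequencing or amplification error.
CD8αα, 1 read: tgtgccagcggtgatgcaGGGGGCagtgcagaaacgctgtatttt
CD8αβ, 2 reads: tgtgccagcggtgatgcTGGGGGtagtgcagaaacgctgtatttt
CD8αβ, 2 reads: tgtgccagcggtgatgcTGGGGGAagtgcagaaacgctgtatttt

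The joining partners of the family were spread over the 12 TRBJ genes by clonotypes and narrow by reads in CD8αα T cells. TRBJ2-7 was the partner with the most clonotypes for TRBV13-1 and TRBV13-2 in both libraries and for TRBV13-3 in CD8αα T cells. It joined 6 of 23 and 16 of 59 TRBV13-1 clonotypes, 10 of 26 and 14 of 64 TRBV13-2 clonotypes, and 6 of 19 and 10 of 58 TRBV13-3 clonotypes in CD8αα and CD8αβ T cells. The next partner was TRBJ2-1 with 5 TRBV13-3 clonotypes in CD8αα T cells, while among CD8αβ T cells it joined 11 TRBV13-3 clonotypes, 1 more than TRBJ2-7. TRBV13-2 was joined to TRBJ2-3 by 10 clonotypes in the CD8αβ and 1 in the CD8αα library, and TRBV13-1 to TRBJ2-4 by 8 and 3. In CD8αα T cells TRBV13-1 was joined to TRBJ2-1 and TRBJ2-4 by 3 clonotypes each, and TRBV13-2 to TRBJ1-4, TRBJ1-6, TRBJ2-1 and TRBJ2-5 by 3 each.

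Of 36 possible pairs of a TRBV13 gene and a listed TRBJ gene 35 were seen, and none of the 35 passed the test by clonotypes (0 of 35, against 0% of the 220 V-J pairs, two-sided Fisher's exact test with Benjamini-Hochberg adjustment). At an unadjusted p under 0.05, 0 of the 35 and 5 of the 220 pairs passed by clonotypes. By reads 14 of the 35 pairs passed, against 33.6% of the 220 pairs, with 3 higher and 11 lower in CD8αα T cells, where over all pairs 17 were higher and 57 lower.

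Of the 3 pairs that were higher in CD8αα T cells, 2 used TRBV13-2 and 1 used TRBV13-3. TRBV13-2-TRBJ1-4 held 111 reads (3.71%, 3.09 to 4.44) against 2 reads in CD8αβ T cells (0.108%, 0.0297 to 0.393; adjusted p = 1.79e-19, Fisher's exact test), from 3 and 2 clonotypes. TRBV13-3-TRBJ1-3 held 70 reads (2.34%, 1.85 to 2.94) against 2 reads (0.108%, 0.0297 to 0.393; adjusted p = 2.35e-11, Fisher's exact test), from 3 clonotypes and 1 clonotype, and the largest held 63 of the 70 reads. TRBV13-2-TRBJ2-7 held 70 reads against 24 (1.30%, 0.873 to 1.92; adjusted p = 0.0317, Fisher's exact test), from 10 and 14 clonotypes. TRBV13-1-TRBJ2-7, the pair of the largest TRBV13-1 clonotype, held 65 reads against 33 and did not pass (adjusted p = 0.482, Fisher's exact test).

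Of the 111 reads of TRBV13-2-TRBJ1-4 in CD8αα T cells, 88 belonged to its largest clonotype and 21 to another, which was chosen for mention after its value was seen. Their CDR3s had 15 residues each and shared the germline aspartic acid, and the bases between V and J differed. They are shown to compare these joints of 1 V-J pair.
TRBV13-2 with TRBJ1-4, CD8αα, 88 reads: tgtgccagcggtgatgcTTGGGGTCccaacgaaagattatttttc
TRBV13-2 with TRBJ1-4, CD8αα, 21 reads: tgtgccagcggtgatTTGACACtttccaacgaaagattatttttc

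The 11 pairs that were lower in CD8αα T cells had 0 to 14 reads there and 6 to 26 reads in CD8αβ T cells. TRBV13-3-TRBJ2-3 was at 0 of 2995 reads (0 to 0.128%), where the floor of 3 reads is a share of 0.100%. In CD8αβ T cells this pair held 18 reads or 0.973% (0.616 to 1.53, adjusted p = 4.79e-07, Fisher's exact test). TRBV13-2-TRBJ2-4 was at 1 read against 18 (adjusted p = 5.05e-06), TRBV13-2-TRBJ2-3 at 1 against 17 (adjusted p = 9.46e-06) and TRBV13-2-TRBJ2-1 at 4 against 20 (adjusted p = 6.92e-05, each by Fisher's exact test). TRBV13-3-TRBJ1-6 was at 0 against 9 (adjusted p = 0.00121) and TRBV13-3-TRBJ2-7 at 14 against 26 (adjusted p = 0.00454, both by Fisher's exact test). The other 5 were TRBV13-2-TRBJ1-1 (1 against 10), TRBV13-2-TRBJ1-2 (0 against 7), TRBV13-1-TRBJ2-4 (3 against 12), TRBV13-3-TRBJ2-4 (0 against 6) and TRBV13-3-TRBJ2-2 (4 against 12 reads). Their adjusted p ran from 0.00280 to 0.0140 by Fisher's exact test. None of the 11 passed by clonotypes, of which the libraries held 337 and 915. In the order given, the pairs before these 5 had 0 against 6, 1 against 7, 1 against 10, 3 against 7, 0 against 4 and 6 against 10 clonotypes. These 5 had 1 against 6, 0 against 4, 3 against 8, 0 against 5 and 2 against 4.

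**Figure D4:**
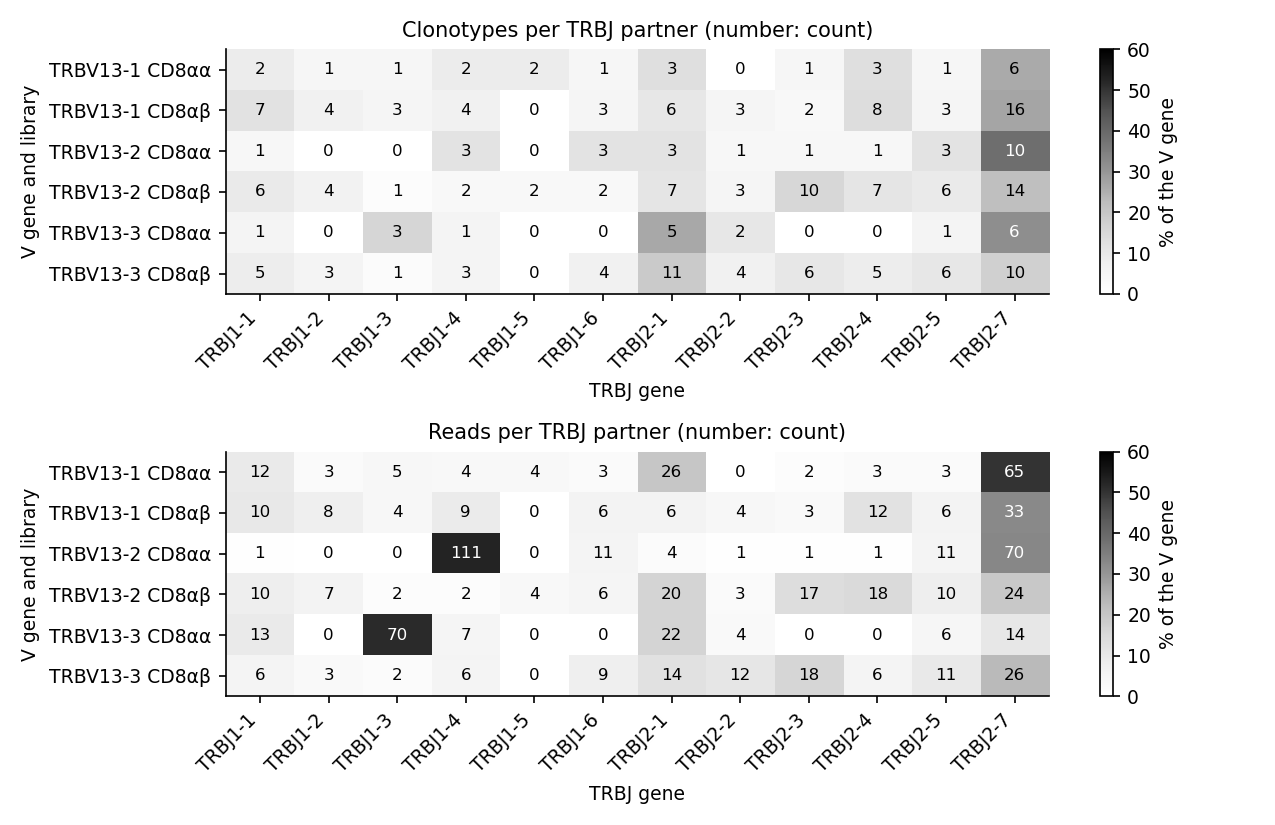
Number of clonotypes (top) and reads (bottom) of each TRBV13 gene with each of the 12 TRBJ genes, in CD8αα and CD8αβ T cells, shaded by the percentage of the gene's total. The darkest cells by reads are TRBV13-2 with TRBJ1-4 (111 reads), TRBV13-3 with TRBJ1-3 (70) and TRBV13-1 with TRBJ2-7 (65) in CD8αα T cells.

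Counted by reads, an effective number of TRBJ partners was 3.29 for TRBV13-1, 2.55 for TRBV13-2 and 3.16 for TRBV13-3 in CD8αα T cells. In CD8αβ T cells it was 6.27, 7.93 and 7.68. Over the family as a whole it was 4.87 against 8.04, and over the other TRBV genes 4.18 against 7.78. The lower values by reads in CD8αα T cells were thus not particular to the family. By clonotypes the effective number was 7.45, 4.83 and 4.69 for the 3 genes in CD8αα T cells against 7.30, 8.13 and 8.54. TRBV13-1 thus had like values in both libraries. TRBV13-2 and TRBV13-3 had lower values in CD8αα T cells, where they rest on 26 and 19 clonotypes. Over the other TRBV genes it was 7.76 against 8.11. Members of the TRBJ1 cluster, which lies upstream of TRBJ2, joined 30.9% of the family's CD8αα clonotypes (21.2 to 42.6) and 29.8% of its CD8αβ clonotypes (23.6 to 36.9). For the other TRBV genes these shares were 33.1% (27.7 to 38.9) and 32.0% (28.7 to 35.5). By reads TRBJ1 held 51.2% of the family in CD8αα T cells, against 27.9% in CD8αβ T cells and 19.8% and 30.9% of the other TRBV genes. The TRBV13-2 clonotype of 88 reads and the TRBV13-3 clonotype of 63 reads held 151 of these 244 TRBJ1 reads, and without the largest clonotype of each TRBV13 gene the shares were 33.2% and 29.9%. Without the largest clonotype of the other TRBV genes, which in CD8αα T cells is the TRBV16 clonotype of 663 reads with TRBJ2-1, their shares were 26.9% and 32.9%.

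CDR3 length was counted in residues with the conserved first and last residue included. With each clonotype counted once it did not differ between the libraries by more than its error for any of the 3 genes. TRBV13-1 averaged 13.7 ± 1.23 residues (SD over 23 clonotypes) in CD8αα and 13.6 ± 1.69 (59 clonotypes) in CD8αβ T cells. TRBV13-2 averaged 13.9 ± 1.28 (26) and 14.05 ± 1.62 (64). TRBV13-3 averaged 13.8 ± 1.27 (19) and 14.03 ± 1.52 (58). The differences, CD8αα minus CD8αβ, were 0.0420 ± 0.338, -0.162 ± 0.322 and -0.245 ± 0.354 residues (standard error over clonotypes). Over the family the difference was -0.121 ± 0.193, while over the other TRBV genes it was 0.336 ± 0.107. Whether these values differ from each other was not tested.

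CDR3s of 15 or more residues made up 29.4% of the CD8αα clonotypes of the family (19.9 to 41.1) and 39.2% of its CD8αβ clonotypes (32.4 to 46.5). Those of 12 or fewer made up 14.7% (8.19 to 25.0) and 23.8% (18.1 to 30.5). The TRBV13 lengths ran from 11 to 16 residues in CD8αα T cells and from 10 to 17 in the CD8αβ library, which had more clonotypes. TRBV13-1 had the most short CDR3s in both libraries, at 5 of 23 (21.7%, 9.66 to 41.9) and 20 of 59 (33.9%, 23.1 to 46.6). The intervals of the genes overlapped in each library, so this order was not resolved.

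Weighted by reads, the mean length was 14.1, 14.4 and 14.6 residues for TRBV13-1, TRBV13-2 and TRBV13-3 in CD8αα T cells and 13.7, 13.9 and 14.2 in CD8αβ T cells. With the top clonotype of each gene left out, whose CDR3s had 15, 15 and 16 residues in CD8αα T cells, these means were 13.6, 13.95 and 13.4, against 13.5, 13.9 and 14. The most frequent length by reads in CD8αα T cells was that of the largest clonotype for each gene, with 52 of 130 reads at 15 residues, 129 of 211 at 15 and 64 of 136 at 16.

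**Figure D5:**
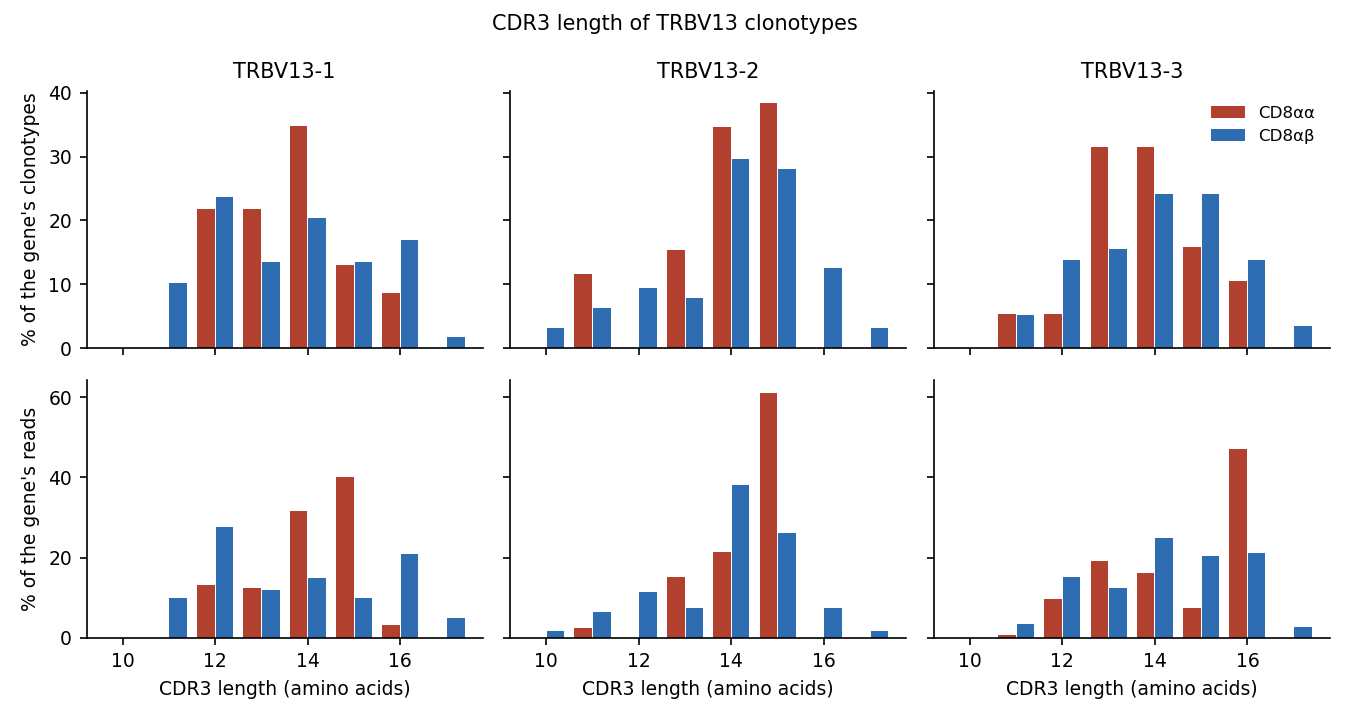
CDR3 length in amino acids of the TRBV13-1, TRBV13-2 and TRBV13-3 clonotypes, as a percentage of each gene's clonotypes (top) and reads (bottom) in CD8αα (red) and CD8αβ (blue) T cells. By reads a single length stands out in CD8αα T cells for TRBV13-2 (15) and TRBV13-3 (16), and by clonotypes the lengths run from 11 to 16 residues in CD8αα and from 10 to 17 in CD8αβ T cells.

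The start of the CDR3 followed the germline sequences printed above. The fourth residue was glycine in 25 of 26 TRBV13-2 clonotypes of CD8αα T cells and 61 of 64 of CD8αβ T cells, and in none of those of TRBV13-1 or TRBV13-3. It was serine in 21 of 23 and 51 of 59 TRBV13-1 clonotypes and in 13 of 19 and 48 of 58 TRBV13-3 clonotypes. Arginine stood there in 4 of 19 and 5 of 58 TRBV13-3 clonotypes and in 0 of 23 and 6 of 59 TRBV13-1 clonotypes of the CD8αα and CD8αβ libraries. The 1 CD8αα clonotype called TRBV13-2 with serine at this place had 3 reads, and its nucleotide CDR3 and its TRBJ2-7 were those of the TRBV13-1 clonotype of 46 reads. With nucleotide CDR3s counted alone it joins the larger clonotype.

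The fifth residue is aspartic acid in the germline of all 3 genes. Any aspartic acid at this place was counted, whether or not its codon lay within the V match. TRBV13-2 had it most often, at 18 of 26 clonotypes in CD8αα (69.2%, 50.01 to 83.5) and 45 of 64 in CD8αβ T cells (70.3%, 58.2 to 80.1). TRBV13-1 had it in 9 of 23 (39.1%, 22.2 to 59.2) and 35 of 59 (59.3%, 46.6 to 70.9). TRBV13-3 had it in 9 of 19 (47.4%, 27.3 to 68.3) and 23 of 58 (39.7%, 28.1 to 52.5). In CD8αβ T cells the intervals of TRBV13-2 and TRBV13-3 did not overlap, while those of the 2 libraries overlapped for each gene. By reads aspartic acid stood at this place in 91.0% of TRBV13-2 and 77.9% of TRBV13-3 in CD8αα T cells, against 72.4% and 37.2% in CD8αβ T cells. TRBV13-1 went the other way, at 52.3% in CD8αα against 56.4% in CD8αβ T cells. The largest CD8αα clonotype of each of the 3 genes carries it. In that of TRBV13-3, with 63 reads, the V match ended after 14 bases, so the last base of this codon lay outside it. In the other TRBV genes 4 of 269 CD8αα and 21 of 734 CD8αβ clonotypes had it.

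TRBV13-2 also had the longest exact run of germline bases at the start of CDR3 in both libraries, and TRBV13-3 the shortest, by means that lay within 1 SD of each other. Out of 16 bases this run had a mean of 14.04 ± 2.07 for TRBV13-2 in CD8αα (SD, 26 clonotypes) and 14.3 ± 1.91 in CD8αβ T cells (64 clonotypes). It had a mean of 13.4 ± 2.04 and 13.9 ± 2.31 for TRBV13-1 and of 12.7 ± 2.47 and 13.1 ± 2.22 for TRBV13-3. All 16 bases stood in 9 of 26 and 26 of 64 TRBV13-2 clonotypes and in 3 of 19 and 6 of 58 of TRBV13-3. TRBV13-1, which has the same 16 bases as TRBV13-3, held them in 6 of 23 and 20 of 59. Between the V and J matches of the lists lay a mean of 9.24 ± 3.50 bases over the family in CD8αα and 8.98 ± 4.09 in CD8αβ T cells, and 9.82 ± 4.29 and 9.33 ± 4.05 over the other TRBV genes.

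The middle of the CDR3, taken without the first 4 and last 4 residues, begins at the fifth residue. It held a higher share of acidic residues in the family than over the other TRBV genes. Aspartic and glutamic acid made up 18.1% of the 393 middle residues in CD8αα and 19.7% of the 1068 in CD8αβ T cells, against 9.91% and 10.3% over the other TRBV genes and 8.75% and 10.1% over the TRBV12 genes. This range includes the fifth residue, which is aspartic acid in the germline of the family. In CD8αα T cells it was aspartic acid in 36 and glutamic acid in 5 of 68 family clonotypes. In CD8αβ T cells these counts were 103 and 18 of 181. Over the other TRBV genes they were 4 and 1 of 269 in CD8αα and 21 and 9 of 734 in CD8αβ T cells. The acidic share past the fifth residue was not computed, so no excess is claimed there. Glycine made up 22.4% and 23.2% of the middle residues of the family, and basic residues (arginine, lysine and histidine) 7.89% and 6.46%. Aromatic residues (phenylalanine, tryptophan and tyrosine) made up 11.5% in CD8αα and 7.49% in CD8αβ T cells, and 12.04% and 9.45% over the other TRBV genes. A pair of neighbouring glycines stood in the middle of 15 of 68 CD8αα clonotypes (22.1%, 13.8 to 33.3) and 53 of 181 CD8αβ clonotypes (29.3%, 23.1 to 36.3), which overlap.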

How the data were processed

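Polyadenylated RNA of CD8αα and of CD8αβ T cells, sorted from TG mouse liver, was sequenced as 1 library each. The authors assembled clonotypes of all receptor chains with MiXCR (version 3.0.12) and deposited a raw count of reads for each. The deposited fraction of each clonotype equals its count divided by all reads of its list. The reference library, read filters and command are not given in the sources used here.

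Clonotypes whose best V and J hits were TRBV and TRBJ genes were taken from the 2 lists, and the 3 TRBV13 genes from these. Tests were run with scipy 1.17.1 and tables handled with pandas 2.3.3 and numpy 2.4.6 under Python 3.11.15, and matplotlib 3.10.9 drew the plots. Shares have 95% Wilson intervals, and the floor is 3 reads. Each V gene and V-J pair was compared on reads and on clonotypes by Fisher's exact test (two-sided), with Benjamini-Hochberg adjustment over all 24 V genes or 220 pairs and a threshold of 0.05. The test was checked on simulated counts drawn for each V gene without clonotypes, so the check does not cover the many reads of a large clone. CDR3 length, trimming and composition were described without a test. Germline exons came from GENCODE M21 (GRCm38), the V and J ends within CDR3 came from the alignment positions in the lists, and the germline run was counted base by base against the exon. The 3 largest clonotypes of each gene in each library, the 2 leading TRBJ partners and pairs past the threshold were named, except 1 clonotype that is not reported here. The genes, lists and tests were chosen with earlier results of these data known.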

Additional observations from a re-analysis of the deposited data

How the results depend on the processing

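Of 57 tests of a gene's share under an alternative, 48 stayed on the same side of the threshold with the same direction. Some of these could not move. Joining clonotypes of a V-J pair by their amino acids or by 1 differing base keeps each gene's reads, so those tests on reads were fixed. Over 16 counts under an alternative, the number of TRBV13 V-J pairs past the threshold stayed between 13 and 15 by reads and at 0 by clonotypes. The TRBV13-1 difference by reads passed the threshold with all listed reads as the denominator (-1.02 percentage points). TRBV13-2 by reads passed without the largest clonotype of each library (2.06), and turned to -0.385 with all listed reads and to -0.0182 with at least 2 reads for each clonotype. Without the largest clonotype of the gene itself, which by construction takes more reads from CD8αα, the differences by reads were -2.35 for TRBV13-1 and -2.01 for TRBV13-2, and nothing is read from their tests. By clonotypes TRBV13-2 turned to -1.94 with at least 2 reads. TRBV13-3 by reads no longer passed with at least 2 reads (-1.54, adjusted p = 0.0687, Fisher's exact test) or without the largest clonotype of each library (-0.592). No paired analysis was possible because each cell type had 1 library, and no library could be left out. The shares by clonotypes rest on 19 to 64 clonotypes for each gene and library, and their intervals show the precision this gives.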

Other observations

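In clonotypes that joined a TRBV13 gene to a TRBJ1 gene, the best D hit was TRBD2 in 2 of 14 with a D hit in CD8αα T cells and in 3 of 31 in CD8αβ T cells, although TRBD2 lies downstream of the TRBJ1 cluster on chromosome 6 (41542163 to 41542176, GRCm38). One of these was the largest TRBV13-2 clonotype. Over the other TRBV genes the counts were 3 of 66 and 8 of 156. In the same TRBJ1 clonotypes, the best constant-region hit was TRBC2 in 18 of 20 with such a hit in CD8αα and 44 of 44 in CD8αβ T cells, and in 68 of 75 and 161 of 172 over the other TRBV genes, although TRBC1 follows the TRBJ1 cluster on the chromosome. The cause was not tested, and neither the D nor the constant-region hit was used for a result.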
